A study of Homo sapiens with 10 samples.

Results

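The TLE co-repressor genes TLE1, TLE2, TLE3, TLE4 and TLE6 were followed through WNT activation in human pluripotent stem cells. They were chosen by symbol: 5 genes of the 35940 symbols in the count table, each with 1 Ensembl identifier, and all 5 passed the filter on low counts. The cells were ESI017, an established human embryonic stem cell line of wild-type genotype, and every group was grown in the defined medium mTeSR1. Untreated cells (mTeSR1) were compared with cells given WNT3A protein (300 ng/ml, 6 h or 18 h), and with cells given CHIR99021 (8 µM, 6 h or 18 h), a small-molecule inhibitor of the kinase GSK3. Each of the 5 groups had 2 libraries of poly-T selected RNA. By the series' design text, the mTeSR1, WNT3A and CHIR99021 6 h groups had 1 library from each of 2 biological repeats, named repeat 1 and repeat 2 below. Both CHIR99021 18 h libraries came from repeat 2. Time in culture for mTeSR1 and a solvent control for CHIR99021 are not given in the labels, so their part in a difference from mTeSR1 cannot be told apart from that of the treatment. All groups come from this 1 line.

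TLE proteins are the human relatives of Drosophila Groucho. They do not bind DNA themselves. TCF/LEF factors, and repressors that carry short WRPW or eh1 peptide motifs, bring them to target genes, where TLE tetramers recruit histone deacetylases and hold transcription down. On WNT target genes, stabilised β-catenin takes over the TCF/LEF factors and TLE proteins give way. TLE1, TLE2, TLE3 and TLE4 are full-length members with a tetramerisation domain and a WD40 propeller. TLE6 is a divergent member best known from the subcortical maternal complex of the oocyte. TLE5, also called AES, lacks the WD40 propeller and is treated below as a relative outside the set.

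On GRCh38, in GENCODE release 29, TLE1 (ENSG00000196781) spans chromosome 9, 81583683 to 81689305, on the minus strand. TLE4 (ENSG00000106829) lies on the same chromosome at 79571773 to 79726882, on the plus strand, 1856801 bases from TLE1 with no coding gene between them. TLE3 (ENSG00000140332) spans chromosome 15, 70047790 to 70098176, on the minus strand. TLE2 (ENSG00000065717; chromosome 19, 2997638 to 3047635, minus strand) and TLE6 (ENSG00000104953; chromosome 19, 2977446 to 2995184, plus strand) are neighbours 2454 bases apart, and TLE5 follows 5275 bases beyond TLE2. The pseudogene TLE1P1 held 0 to 9.15 counts per library, against 3310 to 7567 for TLE1, and TLE7 held 8 counts in all libraries together. Whether the counting used strand is not stated in the labels.

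To show the DNA from which these genes start, 250 bases upstream of a RefSeq start (GRCh38.p14) are printed for TLE1, TLE3 and TLE4, which had the highest levels at 6 h of WNT3A, and for TLE2, which was lowest in the 18 h groups. Capitals mark a TCF/LEF-type motif, searched on both strands as CTTTGAA or CTTTGAT or CTTTGTA or CTTTGTT. The deposited counts are per gene and do not show which start was in use, and the starts shown for TLE2, TLE3 and TLE4 lie inside the span given above. The window of TLE6, both other TLE3 windows and the other TLE4 window run over annotated exons and are not printed. The other TLE2 window, without annotated exon bases upstream of its start, is not printed either.
TLE1 chr9:81689548-81689797 (-): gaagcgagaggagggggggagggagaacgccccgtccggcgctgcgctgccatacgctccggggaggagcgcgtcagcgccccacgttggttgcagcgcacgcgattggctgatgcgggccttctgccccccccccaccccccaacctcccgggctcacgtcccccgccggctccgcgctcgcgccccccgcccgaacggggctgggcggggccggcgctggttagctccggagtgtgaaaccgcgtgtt
TLE3 chr15:70094790-70095039 (-): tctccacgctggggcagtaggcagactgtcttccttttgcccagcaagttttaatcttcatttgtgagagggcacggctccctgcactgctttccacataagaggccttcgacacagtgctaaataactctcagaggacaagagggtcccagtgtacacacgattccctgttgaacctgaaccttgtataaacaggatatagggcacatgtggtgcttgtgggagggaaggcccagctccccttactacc
TLE4 chr9:79572927-79573176 (+): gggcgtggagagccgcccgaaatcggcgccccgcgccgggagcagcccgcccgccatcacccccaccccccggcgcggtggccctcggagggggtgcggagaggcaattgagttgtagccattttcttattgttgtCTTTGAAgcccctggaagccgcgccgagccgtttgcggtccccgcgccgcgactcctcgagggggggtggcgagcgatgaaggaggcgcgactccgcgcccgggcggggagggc
TLE2 chr19:3029281-3029530 (-): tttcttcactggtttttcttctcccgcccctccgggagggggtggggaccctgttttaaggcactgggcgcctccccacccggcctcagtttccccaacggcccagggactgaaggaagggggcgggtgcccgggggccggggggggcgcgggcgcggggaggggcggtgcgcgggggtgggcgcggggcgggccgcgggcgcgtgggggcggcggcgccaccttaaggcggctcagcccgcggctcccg
Of the 9 RefSeq start windows of the 5 genes (each 300 bases, 250 before to 50 after the start), 1 held the motif. That was the TLE4 window shown, with CTTTGAA beginning 114 bases before the start. The share is 11.1%, beside 13.75% of all 35116 windows and 9.48% of the 16641 windows of genes tested here. The stretches shown for TLE1, TLE2 and TLE4 had 72.8% to 77.2% G and C, with 29 to 33 CpG pairs, while that of TLE3 had 51.6% and 4 CpG pairs. The 250 bases before the other TLE2 start had 50.8% and 12 CpG pairs. The TLE3 windows not printed, of 300 bases each, had 66.3% and 54.3%, with 29 and 21 CpG pairs. These values thus describe the stretches chosen and not the genes as a whole.

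Levels were expressed as CPM (counts per 1000000 counts of the library) after trimmed-mean scaling, and compared between genes only per kilobase of the longest annotated transcript. In mTeSR1, TLE1 was the highest of the 5 genes at 46.9 ± 3.46 CPM per kb (SD, n = 2), followed by TLE3 at 10.1 ± 0.496. TLE4 at 5.22 ± 0.839 and TLE2 at 4.68 ± 0.382 CPM per kb came next. The libraries of TLE4 and TLE2 overlapped, so these neighbours in the order did not differ beyond their spread. The order below TLE1 depended on the length used. Per kilobase of the median transcript length, TLE4 was at 38.3, TLE3 at 29.2 and TLE2 at 20.8 CPM in mTeSR1. TLE6 was lowest at 0.483 ± 0.339 CPM per kb, with 29 and 9 counts in the 2 libraries. Among these 5 genes TLE1 was thus the main transcript in mTeSR1. TLE6, at low counts, stood at 1.52 and 0.511 CPM there, above the limit for 3 counts, which lay at 0.112 to 0.180 CPM.

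**Figure D1:**
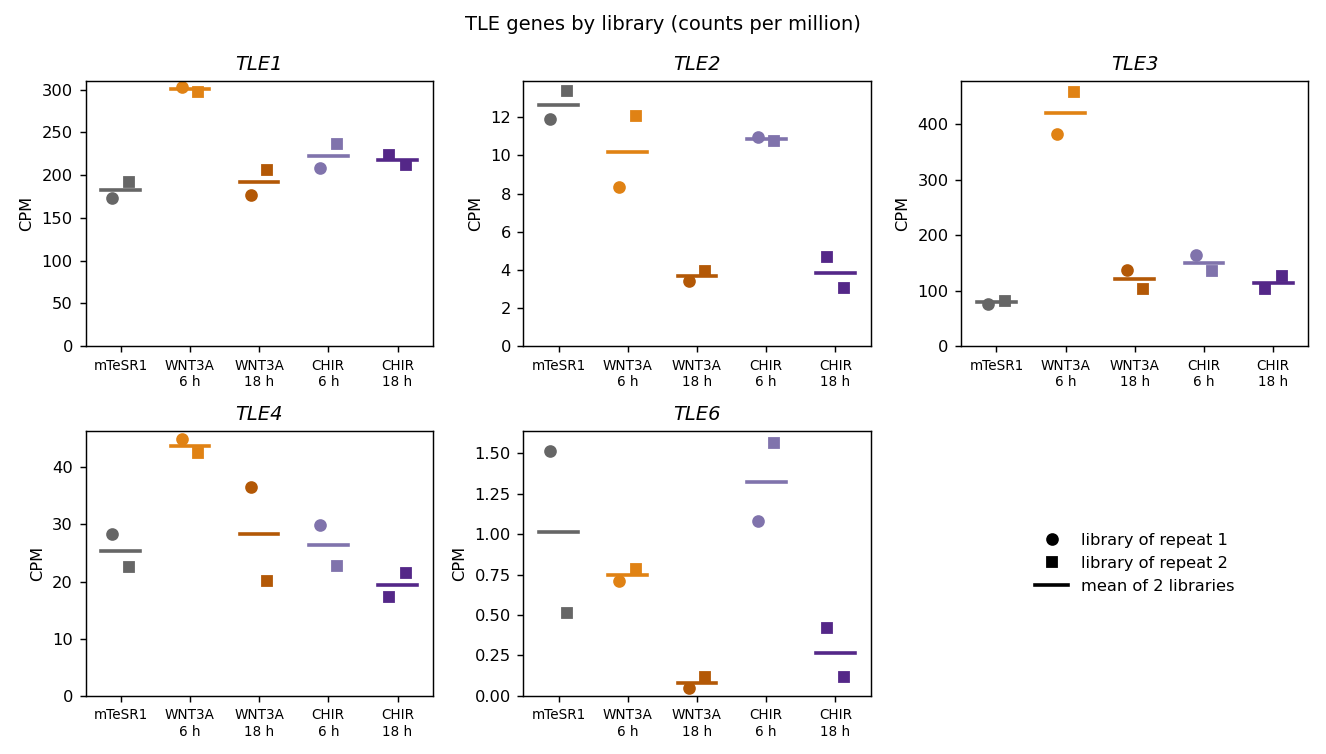
CPM of each TLE gene (vertical axis, from 0) in the 5 groups (horizontal axis). Each point is 1 library, circles for repeat 1 and squares for repeat 2, and bars are means of 2 libraries. TLE3 stands at 381 and 458 CPM after 6 h of WNT3A against 76.3 and 81.8 CPM in mTeSR1, and TLE2 is lowest in both 18 h groups.

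TLE3 rose after 6 h of WNT3A. It stood at 76.3 and 81.8 CPM in mTeSR1 (repeats 1 and 2) and at 381 and 458 CPM after 6 h of WNT3A. Both treated libraries lay far above both untreated ones, and above every other library of the series. The increase was 5.31-fold (log2 change 2.41, SE 0.20, 95% interval 1.95 to 2.86, edgeR FDR 0.0025, the Benjamini-Hochberg adjusted p over 15251 genes tested). By p-value TLE3 was number 6 of those genes. Of all genes tested 0.433% were called in this comparison, at FDR under 0.05 in either direction, 0.387% as higher. Of the 5 TLE genes, TLE3 was the member called. In bulk RNA, more cells with the transcript and more transcript per cell cannot be told apart.

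The TLE3 increase was of like size in each repeat, 2.32 on the log2 scale in repeat 1 and 2.48 in repeat 2. Of the repeat 2 libraries, those of mTeSR1 and WNT3A 6 h stood apart. In both, longer transcripts lay above their mean over all libraries more than short ones did. The Spearman coefficient of deviation with length was 0.349 and 0.448 across 15137 genes, which are not independent. The other 8 libraries had coefficients of -0.293 to -0.0130. In those 2 libraries RPLP1, a ribosomal protein gene, stood at 334 and 206 CPM, against 993 and 772 CPM in the same groups of repeat 1. SIX3, a homeobox repressor gene, had 20 to 202 counts in the repeat 1 libraries and was at 0 in all 6 of repeat 2. TLE3 has the longest transcript of the set at 7809 bases. Repeat 1 alone, which holds neither of those 2 libraries, gave the 2.32 above.

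TLE1 and TLE4 were also highest after 6 h of WNT3A, without passing the test. TLE1, the highest of the 5 genes, stood at 173 and 192 CPM in mTeSR1 and at 304 and 297 CPM after 6 h, with no overlap (log2 difference 0.72, SE 0.14, edgeR FDR 0.085). With the repeat as a block it passed (log2 0.72, edgeR FDR 0.024), in a fit that called 1.10% of all genes. TLE4 stood at 28.3 and 22.5 CPM in mTeSR1 and at 45.0 and 42.6 CPM after 6 h, again with no overlap (log2 difference 0.78, SE 0.28, edgeR FDR 0.56). TLE2 stood at 11.9 and 13.4 CPM in mTeSR1 and at 8.35 and 12.1 CPM after 6 h. The TLE2 libraries overlapped (log2 difference -0.31, 95% interval -0.90 to 0.28). TLE6 stood at 1.52 and 0.511 CPM in mTeSR1 and at 0.708 and 0.786 CPM after 6 h, within the spread of the untreated libraries. Both treated libraries were thus above both untreated ones for 3 of the 5 members, beside 13.7% of all genes tested. The members' median log2 difference was 0.72, beside 0.0064 for all genes.

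The sum of TLE1 to TLE4, per length, was 64.5 and 69.4 CPM per kb in mTeSR1 and 139 and 148 after 6 h of WNT3A. Within that sum the share of TLE1 was 69.0% and 71.1% in mTeSR1 and 56.1% and 51.5% after 6 h of WNT3A. The share of TLE3 was 15.2% and 15.1% in mTeSR1 and 35.1% and 39.6% after 6 h. The ratio of TLE3 to TLE1 per length was 0.216 in mTeSR1, 0.696 after 6 h of WNT3A and 0.313 after 18 h, each the ratio of the 2 group means. TLE1 remained the larger share in all 10 libraries. These sums and shares are a description, with no test.

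**Figure D2:**
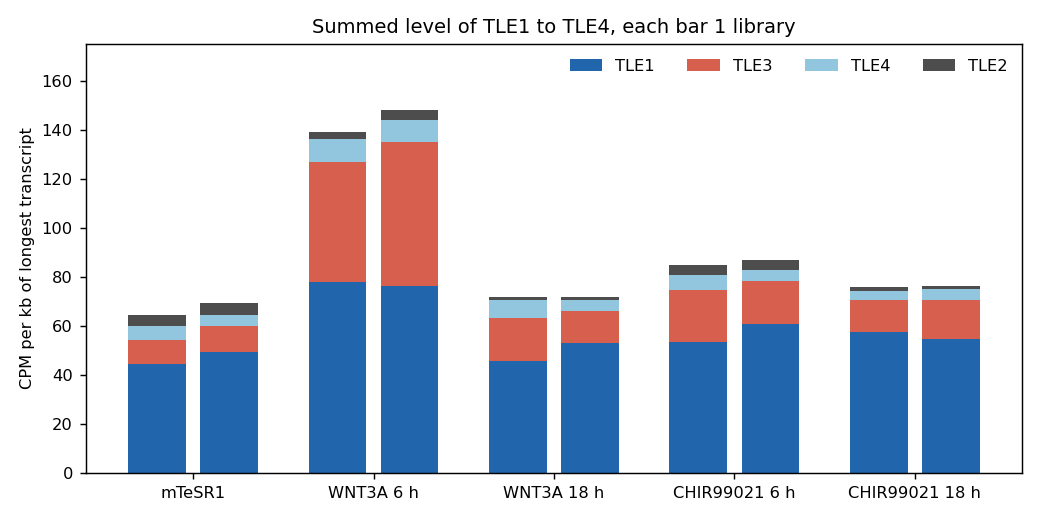
Summed level of TLE1, TLE2, TLE3 and TLE4 in CPM per kilobase of longest transcript (vertical axis, from 0), each bar 1 library of the group named below it. The sum is 139 and 148 after 6 h of WNT3A and between 64.5 and 86.8 in the 8 other libraries.

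At 18 h of WNT3A TLE2 fell, and TLE3, at a lower level than at 6 h, did not pass the test against mTeSR1. TLE2 stood at 11.9 and 13.4 CPM in mTeSR1 and at 3.44 and 3.91 CPM after 18 h. Both treated libraries lay below both untreated ones and below every 6 h library. The decrease was 3.44-fold (log2 change -1.78, SE 0.27, 95% interval -2.41 to -1.16, edgeR FDR 0.016). It was -1.76 on the log2 scale in repeat 1 and -1.75 in repeat 2. TLE2 was the 1 member of 5 called, beside 2.10% of all genes, 1.06% as lower. The call was lost when any 1 of the 4 libraries compared was left out (edgeR FDR 0.062 and 0.089 without mTeSR1 replicates 1 and 2, 0.124 and 0.118 without WNT3A 18 h replicates 1 and 2), at log2 values of -1.88 to -1.69.

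TLE3 stood at 138 and 103 CPM after 18 h of WNT3A, above both mTeSR1 libraries but without passing the test (log2 difference 0.61, 95% interval 0.17 to 1.04, edgeR FDR 0.18). TLE1 stood at 177 and 207 CPM, overlapping mTeSR1 (log2 difference 0.07, 95% interval -0.24 to 0.38). TLE4 stood at 36.6 and 20.1 CPM, 1 library above and 1 below those of mTeSR1 (log2 difference 0.16, 95% interval -0.48 to 0.80). TLE6 had 1 and 2 counts after 18 h of WNT3A against 29 and 9 in mTeSR1. Pooled over libraries, TLE6 was 13.3-fold lower, with an exact 95% counting interval of 4.22 to 67.4 that covers counting error only. TLE6 did not pass edgeR's test (FDR 0.096), though it did with DESeq2 (adjusted p 0.041). In CPM, 2 of the 5 members were below mTeSR1 in both libraries (21.3% of all genes) and 1 was above (21.8%).

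Between 6 h and 18 h of WNT3A, TLE3 fell by 1.80 on the log2 scale (3.49-fold, SE 0.20, 95% interval of the change -2.25 to -1.36, edgeR FDR 0.027). It ranked number 5 of 15251 genes by p-value, and the change was -1.47 in repeat 1 and -2.16 in repeat 2. The coefficients of deviation with length were 0.448 at 6 h and -0.293 at 18 h in repeat 2. In repeat 1 they were -0.136 and -0.162. TLE3 has the longest transcript of the set, and the part of length in the larger repeat 2 value was not tested. Over all 17 alternatives, the length offset among them, the log2 change was -2.03 to -1.56. This contrast is also the direct test of whether the 6 h and 18 h differences from mTeSR1 differ, and of all genes 0.144% were called in it, 0.0984% as lower. TLE3 was the 1 member called. The TLE3 call was lost in 6 of 10 edgeR fits that each left out 1 library. The FDR was 0.152 and 0.250 without WNT3A 18 h replicates 1 and 2, and 0.073 without WNT3A 6 h replicate 2. It was 0.054 without mTeSR1 replicate 1, and 0.097 and 0.095 without CHIR99021 6 h replicates 1 and 2, libraries that enter only through the shared estimate of spread.

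The libraries of all 5 members were lower at 18 h than at 6 h of WNT3A with no overlap, beside 21.9% of all genes (20.9% were higher). The members' median log2 difference was -1.47, beside -0.0034 for all genes. With the repeat as a block, TLE1 (log2 -0.65, edgeR FDR 0.033) and TLE2 (log2 -1.46, edgeR FDR 0.031) passed as well, in a fit that called 1.83% of genes. Without the block their FDR values were 0.116 and 0.081. TLE4 (log2 difference -0.62, 95% interval -1.26 to 0.01) and TLE6 (3 counts against 35 at 6 h) passed in neither fit.

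CHIR99021 at 6 h gave 0 called members by edgeR, beside 0.0197% of all genes, and 1 member with an unadjusted p under 0.05, beside 4.74% of all genes. That member was TLE3, at 164 and 136 CPM against 76.3 and 81.8 in mTeSR1, with no overlap (log2 difference 0.92, SE 0.19, 95% interval 0.49 to 1.36, edgeR FDR 0.365, and DESeq2 adjusted p 0.012). The TLE3 difference was 1.10 in repeat 1 and 0.73 in repeat 2. TLE1 stood at 209 and 237 CPM (log2 difference 0.29, 95% interval -0.03 to 0.60). TLE2 stood at 11.0 and 10.7 CPM (log2 difference -0.22), and TLE4 at 29.9 and 22.8 CPM (log2 difference 0.05). TLE6 was at 1.08 and 1.56 CPM (log2 difference 0.38, 95% interval -1.14 to 1.89). Of the 5 members 2 were above mTeSR1 in both libraries (16.5% of all genes) and 1 was below (15.9%).

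Set side by side at 6 h, the 2 ways of activating the pathway gave different levels of TLE3: 381 and 458 CPM with WNT3A, 164 and 136 CPM with CHIR99021. No library overlapped (log2 difference of CHIR99021 from WNT3A -1.48, SE 0.19, 95% interval -1.93 to -1.04). The difference was -1.22 in repeat 1 and -1.75 in repeat 2, and -1.63 to -1.28 over all 17 alternatives. In repeat 2 the coefficients of deviation with length were 0.448 for WNT3A and -0.251 for CHIR99021. In repeat 1 they were -0.136 and -0.146. The part of length in the larger repeat 2 value was not tested. By p-value TLE3 was number 4 of 15251 genes, yet it missed the threshold in edgeR (FDR 0.14) in a comparison where 0.00656% of genes were called and 6.53% had an unadjusted p under 0.05. DESeq2 called it (adjusted p 5.49e-08). TLE1 and TLE4 were also lower in both CHIR99021 libraries than in both WNT3A libraries (log2 differences -0.43 and -0.74), while TLE6 was higher (0.82), and these 3 had edgeR FDR values of 0.69 to 0.74. TLE2 overlapped (log2 difference 0.09, 95% interval -0.50 to 0.68). Among all genes 18.0% were below and 16.5% above without overlap. The doses are of different agents, so the comparison is of these treatments as given.

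At 18 h of CHIR99021, TLE2 fell. TLE2 stood at 4.65 and 3.05 CPM against 11.9 and 13.4 in mTeSR1, both libraries below every untreated and every 6 h library. The decrease was 3.54-fold (log2 change -1.82, SE 0.26, 95% interval -2.42 to -1.23, edgeR with the repeat as a block, FDR 0.013). Against the mTeSR1 library of the same repeat the differences were -1.50 and -2.10. TLE2 was the 1 member called, beside 2.78% of all genes, 1.63% as lower. The call was lost without mTeSR1 replicate 1 (FDR 0.066), mTeSR1 replicate 2 (FDR 0.206) or the second CHIR99021 18 h library (FDR 0.084). Both 18 h comparisons share the mTeSR1 libraries, so the 2 decreases of TLE2 are not independent of each other.

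The other members at 18 h of CHIR99021 did not pass. TLE3 stood at 103 and 126 CPM (log2 difference from mTeSR1 0.57, 95% interval 0.13 to 1.01, edgeR FDR 0.165). TLE1 stood at 224 and 212 CPM (log2 difference 0.19, 95% interval -0.08 to 0.47), and TLE4 at 17.2 and 21.5 CPM (log2 difference -0.18, 95% interval -0.65 to 0.30). TLE6 had 7 and 2 counts, 0.418 and 0.113 CPM (log2 difference -1.84, 95% interval -3.80 to 0.12). Of the 5 members 3 were below mTeSR1 in both libraries (22.7% of all genes) and 2 above (24.2%).

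Between WNT3A and CHIR99021 at 18 h, edgeR called 0 members and 0% of all genes. At an unadjusted p under 0.05 there were 0 members and 4.12% of all genes. DESeq2 called 8 genes and 0 members. TLE2 was at 3.68 ± 0.337 CPM with WNT3A and 3.85 ± 1.14 CPM with CHIR99021 (SD, n = 2; log2 difference -0.04, 95% interval -0.66 to 0.58). TLE3 was at 120.3 ± 24.8 and 114 ± 16.3 CPM (log2 difference -0.03, 95% interval -0.48 to 0.41). These intervals leave room for differences of that size in either direction. In TLE1 both CHIR99021 libraries were above both WNT3A libraries (log2 difference 0.12), where 18.6% of genes were (20.6% were below), and the other 4 members overlapped.

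From 6 h to 18 h of CHIR99021, 0 members and 0.00656% of genes were called by edgeR, while 2 members (TLE2 and TLE6) and 6.85% of genes had an unadjusted p under 0.05. TLE2 stood at 11.0 and 10.7 CPM at 6 h and 4.65 and 3.05 CPM at 18 h (log2 difference -1.61, SE 0.26, 95% interval -2.21 to -1.01, edgeR FDR 0.165, and DESeq2 adjusted p 0.0010). It was number 16 of 15251 genes by p-value. TLE3 had a log2 difference of -0.35 (95% interval -0.79 to 0.09) between these times. In 4 of 5 members both 18 h libraries were below both 6 h libraries, beside 21.0% of all genes, and TLE1 overlapped.

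Whether the course from 6 h to 18 h differed between the agents was tested as an interaction, which called 0 members and 0 genes in edgeR (unadjusted p under 0.05 for 2 members and 3.76% of genes). For TLE3 the difference of the log2 changes, CHIR99021 minus WNT3A, was 1.46 (SE 0.27, 95% interval 0.84 to 2.08, edgeR FDR 0.93), number 7 of 15251 genes by p-value. In DESeq2, which called 5 genes, TLE3 was one of them (adjusted p 0.0046). For TLE2 it was -0.15 (95% interval -0.97 to 0.68), and for TLE1 0.56 (95% interval 0.19 to 0.93, edgeR FDR 0.93).

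**Figure D3:**
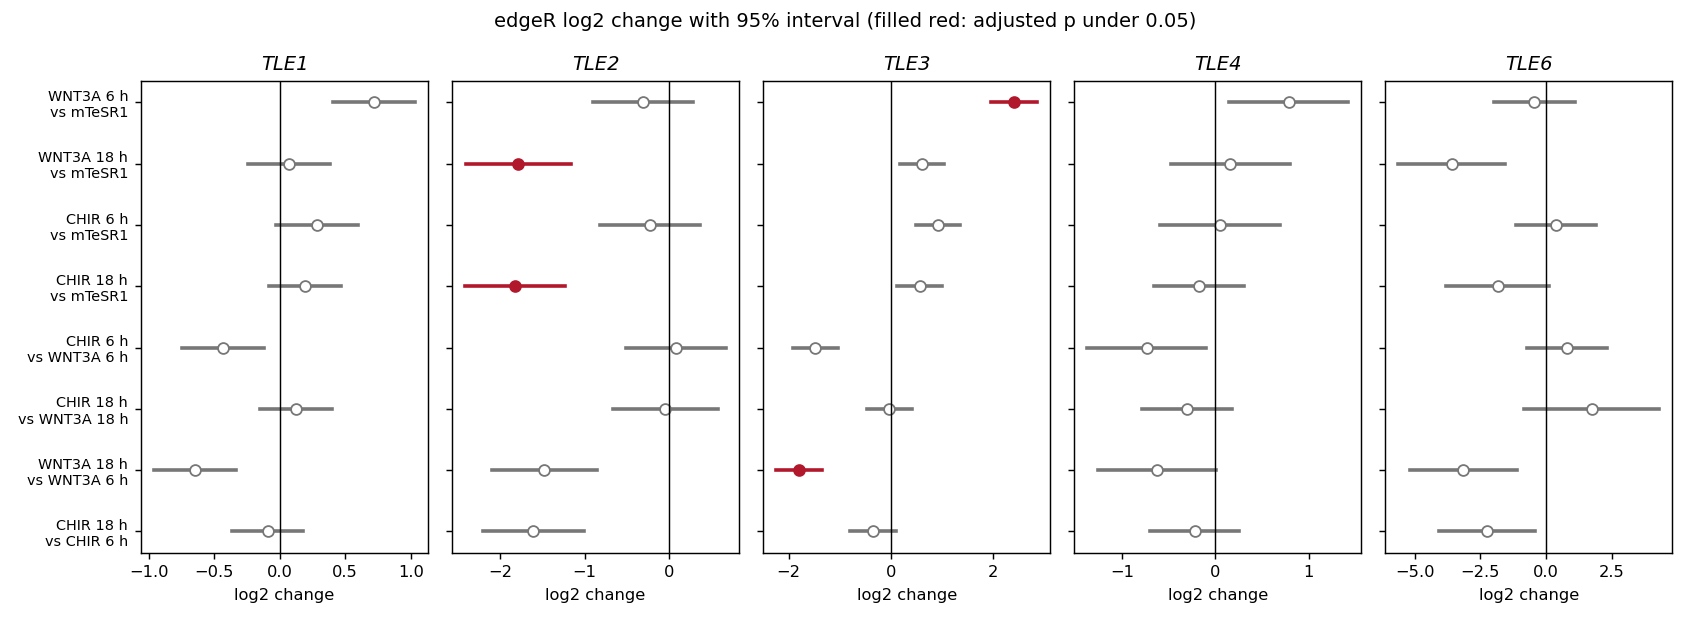
Log2 changes of the 5 TLE genes (horizontal axis, 0 marked) in the 8 pairwise comparisons (vertical axis), with 95% intervals from edgeR. Filled red points passed an adjusted p of 0.05: TLE3 at 6 h of WNT3A and from 6 h to 18 h of WNT3A, and TLE2 at 18 h of WNT3A and of CHIR99021.

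Some members varied together over the 10 libraries, which share the treatments and the repeats. Pearson's r of log2 CPM, given as a description, was 0.87 for TLE1 with TLE3, 0.78 for TLE3 with TLE4 and 0.88 for the neighbours TLE2 and TLE6. It was 0.44 for TLE1 with TLE4, the pair on chromosome 9, and 0.15 to 0.31 for the other 6 pairs. TLE5, next to TLE2, stood at 205 and 140 CPM in mTeSR1, 121 and 109 CPM after 18 h of WNT3A and 107 and 105 CPM after 18 h of CHIR99021. Both 18 h groups were below both untreated libraries, without passing (log2 difference -0.59, edgeR FDR 0.395, and -0.45, edgeR FDR 0.195).

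The genes whose log2 CPM followed each member most closely over the 10 libraries were taken from 15246 others. For TLE3 they included ZSWIM5 and NEDD9 (r of 0.9472 and 0.9411), and ZSWIM5 stood at 8.84 and 8.96 CPM in mTeSR1 and 13.1 and 12.7 CPM after 6 h of WNT3A. For TLE1 they were TRIM62, LMO4 and BRINP1 (0.9525, 0.9503 and 0.9322). For TLE2 they were PDLIM3, ACADSB and GNG4 (0.9928, 0.9815 and 0.981). PDLIM3, a muscle LIM-domain protein gene, stood at 8.73 and 9.02 CPM in mTeSR1, 1.79 and 1.96 CPM after 18 h of WNT3A and 2.75 and 1.64 CPM after 18 h of CHIR99021. For TLE4 they were EFR3B, DRG1 and NKAPD1 (0.9548, 0.9404 and 0.9325), and for TLE6, at its low counts, SLC17A6, CKMT1A and P2RX5 (0.9597, 0.9428 and 0.9359).

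The TCF/LEF genes encode the DNA-binding partners of TLE proteins on WNT targets. All 4 were tested. TCF7, which acts mostly as an activator with β-catenin, rose from 12.8 and 14.3 CPM in mTeSR1 to 53.6 and 55.2 CPM after 6 h of WNT3A (log2 change 2.01, edgeR FDR 0.018). It also rose at 18 h of WNT3A (53.9 and 36.7 CPM, edgeR FDR 0.016) and of CHIR99021 (36.6 and 59.4 CPM, edgeR FDR 0.015). TCF7L1, the main repressor of the family in pluripotent cells, fell from 280.1 and 311 CPM to 77.7 and 105 CPM after 18 h of WNT3A (log2 change -1.69, edgeR FDR 0.024) and to 173 and 92.5 CPM after 18 h of CHIR99021 (-1.29, edgeR FDR 0.041). LEF1 stood at 1.05 and 0.113 CPM in mTeSR1, the second of these being 2 counts. It stood at 30.5 and 13.4 CPM after 6 h of WNT3A (log2 difference 5.19, edgeR FDR 0.223) and at 50.1 and 22.7 CPM after 18 h (5.93, edgeR FDR 0.062). It rose to 5.31 and 56.3 CPM after 18 h of CHIR99021 (edgeR FDR 0.041), 2 libraries that differed widely, and the call was lost in 12 of 16 alternative fits. The TCF7L1 call at 18 h was lost in 5 of 17 alternatives for WNT3A and in 11 of 16 for CHIR99021, and each TCF7 call in 2 or 3. TCF7L2 stood between 38.4 and 70.5 CPM in all 10 libraries and was called in 0 comparisons.

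**Figure D4:**
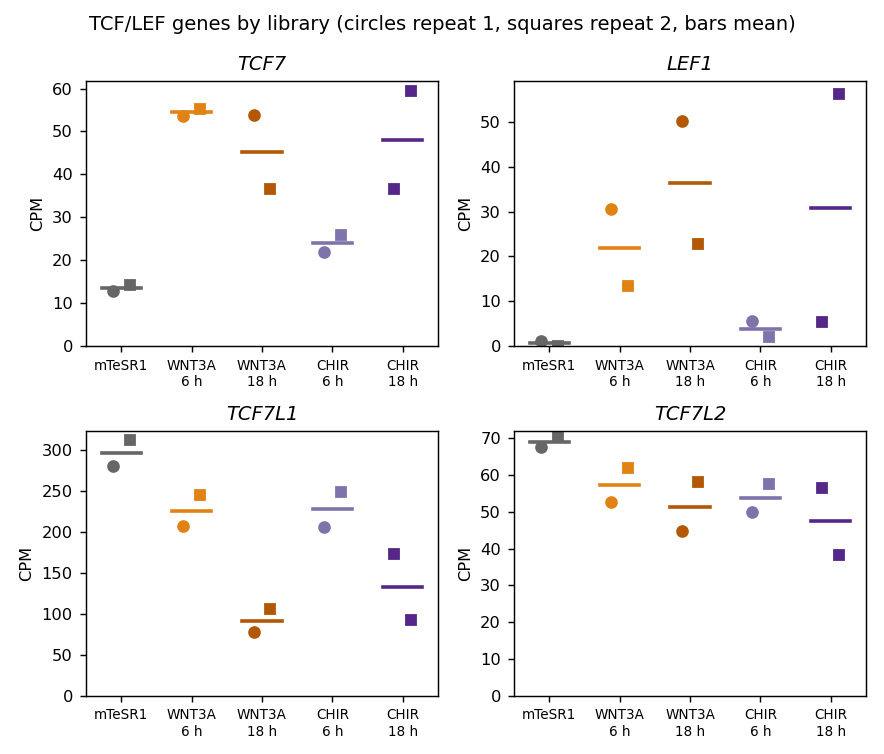
CPM of the 4 TCF/LEF genes (vertical axes, from 0) in the 5 groups, each point 1 library (circles repeat 1, squares repeat 2) and bars the means of 2. TCF7 is at 12.8 and 14.3 CPM in mTeSR1 and at 36.6 CPM or more in the WNT3A groups and CHIR99021 18 h, while TCF7L1 is lowest at 18 h.

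Calls were also read for the co-activators that take the place of TLE proteins on TCF/LEF factors. Of 7 genes tested, 0 were called against mTeSR1 at 6 h or 18 h of WNT3A or at 6 h of CHIR99021. Of all genes 0.433%, 2.10% and 0.0197% were called there, so 0 of 7 is near those shares. In the 18 h CHIR99021 group, where 2.78% of all genes were called, BCL9L was called alone of the 7. BCL9L, a scaffold between β-catenin and PYGO proteins, fell from 187 and 245 CPM to 155 and 123 CPM (log2 change -0.71, edgeR FDR 0.047). That call was lost in 12 of 16 alternative fits. Medians of this list lay between -0.26 and 0.13 against mTeSR1.

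Of 22 genes for repressors that recruit TLE proteins through WRPW or eh1 motifs, 12 passed the filter on low counts. GBX2, a homeobox repressor gene, rose from 1.10 and 1.13 CPM to 75.3 and 53.7 CPM after 6 h of WNT3A (edgeR FDR 0.020). FOXD3, a forkhead repressor of pluripotent and neural crest cells, fell from 54.0 and 45.6 CPM to 4.62 and 3.18 CPM (edgeR FDR 0.010). After 18 h of WNT3A GBX2 and the endodermal factor FOXA2 were called as higher, and FOXD3 and the anterior homeobox repressor HESX1 as lower. The same split of 2 higher and 2 lower, with these 4 genes, was called at 18 h of CHIR99021. HESX1 went from 13.5 and 9.19 CPM in mTeSR1 to 0.377 and 0.461 CPM at 18 h of WNT3A (edgeR FDR 0.0051). The GBX2 call was lost in 8 of 17 alternatives at 6 h of WNT3A and in 11 of 16 at 18 h of CHIR99021, where its libraries stood at 21.8 and 117 CPM.

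No calls were made among the partners that carry out repression beside TLE. Of 13 tested genes for histone deacetylases and other co-repressors, TLE5 among them, 0 were called in any of the 9 comparisons. HDAC1 and HDAC2 had log2 differences of -0.15 and -0.04 after 6 h of WNT3A, and the list's median was -0.0088. Of 8 genes for kinases and ubiquitin enzymes that act on TLE proteins, 0 were called too. XIAP, a ubiquitin ligase that removes TLE from TCF, stood between 53.3 and 77.3 CPM in all 10 libraries. Of 5 genes of the subcortical maternal complex, the setting in which TLE6 is best known, NLRP7 alone passed the filter on low counts, at 0.518 to 2.55 CPM, and was called in 0 comparisons.

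WNT feedback and direct target genes were read in the same libraries. Of 11 tested, 5 were called as higher at 6 h of WNT3A, 7 at 18 h of WNT3A, 1 at 6 h of CHIR99021 and 6 at 18 h of CHIR99021, and 0 as lower. AXIN2, the feedback scaffold of the destruction complex, stood at 39.3 and 31.8 CPM in mTeSR1 and at 250.2 and 184 CPM, 211 and 168 CPM, 104 and 112 CPM and 120.2 and 249 CPM in those 4 groups in that order. The AXIN2 libraries of 6 h and 18 h of WNT3A overlapped. TBXT, APCDD1, RNF43 and NOTUM were higher at 18 h than at 6 h of WNT3A with no overlap, without passing the test. TBXT stood at 13.2 and 9.23 CPM at 6 h and 60.7 and 54.6 CPM at 18 h. Like TLE3, other genes of this list were lower at 18 h with no overlap, and these did not pass either. Among all genes 20.9% were higher and 21.9% lower in this way. CCND1, the cyclin D1 gene, stood at 712 and 872 CPM at 6 h and 474 and 477 CPM at 18 h (log2 difference -0.74, edgeR FDR 0.164). NKD1, a feedback inhibitor, stood at 256 and 259 CPM and then at 176 and 93.4 CPM (-0.93, edgeR FDR 0.448), and TNFRSF19 at 13.5 and 11.5 CPM and then at 6.69 and 5.07 CPM (-1.09, edgeR FDR 0.388). The 1 gene called at 6 h of CHIR99021 was SP5, a WNT-induced zinc finger repressor, and that call was lost in 8 of 17 alternatives (edgeR FDR up to 0.298, without mTeSR1 replicate 2). Other calls of this list were also lost in many alternatives. NKD1 lost its call in 9 of 17 at 6 h of WNT3A, 10 of 17 at 18 h of WNT3A and 12 of 16 at 18 h of CHIR99021. TNFRSF19 lost it in 8 of 17 at 6 h of WNT3A, TBXT in 11 of 17 at 18 h of WNT3A, and APCDD1 in 8 of 17 and 11 of 16 at 18 h of WNT3A and of CHIR99021.

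The cell type was checked against fixed marker lists. All 8 pluripotency markers had counts in every library. Their sum was 7963 to 8547 CPM in mTeSR1. It was 7044 to 7960 and 7390 to 7427 CPM at 6 h and 18 h of WNT3A. At 6 h and 18 h of CHIR99021 it was 7593 to 7952 and 6326 to 7488 CPM. DNMT3B stood at 2431 and 2570 CPM in mTeSR1. Its 18 h libraries were lower, at 1354 and 1211 CPM with WNT3A and 1522 and 937 CPM with CHIR99021. At 18 h of WNT3A the other markers of this list overlapped mTeSR1. At 18 h of CHIR99021 LIN28A was below both mTeSR1 libraries too, and the rest overlapped. The 6 primitive streak markers summed to 2.14 to 3.23 CPM in mTeSR1, where TBXT, GSC and MESP1 were at 0 in both libraries. Their sum was 72.7 to 75.9 CPM at 6 h and 233 to 242 CPM at 18 h of WNT3A. It was 6.71 to 9.17 CPM at 6 h of CHIR99021, and 23.0 and 210.2 CPM in the 2 libraries of 18 h of CHIR99021. EOMES, MIXL1 and TBXT made up most of this sum in every treated library. TBX6 stood at 1.67 and 1.64 CPM in mTeSR1 and at 0.379 to 1.73 CPM in the treated libraries. MESP1 was at most 0.472 CPM. The 5 endoderm markers summed to 1.20 to 1.42 CPM in mTeSR1. Their sum was 4.15 to 7.70 and 5.46 to 9.21 CPM at 6 h and 18 h of WNT3A. With CHIR99021 it was 2.92 to 4.48 and 4.65 to 8.75 CPM at 6 h and 18 h. FOXA2 and CXCR4 made up most of this sum in every library, and SOX17 was at most 0.0472 CPM. The 4 neural crest markers summed to 48.4 to 57.2 CPM in mTeSR1 and to 3.84 to 13.3 CPM in the treated groups, with TFAP2B at 0 in both mTeSR1 libraries. FOXD3, described above, is in that list and makes up most of its sum in mTeSR1. The 6 amnion or trophoblast markers summed to 10.3 to 18.2 CPM in mTeSR1 and both 6 h groups. Their sum was lower at 18 h, at 3.45 to 5.60 CPM with WNT3A and 5.01 to 5.70 CPM with CHIR99021. KRT7 made up most of this sum, at 13.2 and 9.76 CPM in mTeSR1. It stood at 5.09 and 2.94 CPM at 18 h of WNT3A and 4.30 and 5.19 CPM at 18 h of CHIR99021. The other markers of this list were at most 0.395 CPM. The 5 neuroectoderm markers summed to 452 to 471 CPM in mTeSR1, 445 to 493 and 269 to 429 CPM at 6 h and 18 h of WNT3A, and 234 to 424 and 248 to 264 CPM at 6 h and 18 h of CHIR99021. NES made up most of that sum in every library, at 451 and 443 CPM in mTeSR1. PAX6 and SOX1 were at 0 in the mTeSR1 library of repeat 2. Mitochondrially encoded genes took 2.70% to 6.73% of counts. The part of these cell states in the TLE results was not tested.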

How the data were processed

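RNA-seq of 10 ESI017 libraries was analysed. The authors deposited 1 table of estimated counts per Ensembl gene, made with Salmon 1.8.0 on GRCh38, per the submitters' processing notes. The estimated counts were summed over the identifiers of a symbol and rounded. Library totals were 16.65 to 26.73 times 1000000 counts, so 3 counts equal 0.112 to 0.180 CPM. Such limits and counting intervals cover counting error only.

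Genes passed edgeR's filter at a minimum count of 10 and a total of 15, which left 15251. The test was edgeR's quasi-likelihood test (edgeR 4.0.16, limma 3.58.1, R 4.3.3) with trimmed-mean scaling, fitted to all 10 libraries. P-values were adjusted by Benjamini-Hochberg over all genes tested and called under 0.05. The script was tested on simulated data. Alternatives were DESeq2 1.42.0, its size factors (RLE), no low-count filter, the repeat as a block, single identifiers, a transcript length offset, and leaving out each library.

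The biological repeats pair libraries by the series' design text. Deviations from group means correlated between libraries of the same repeat (r of 0.261 to 0.595 over 6 pairs of groups). The block was part of the fit for comparisons with CHIR99021 18 h, and an alternative for the others. Nothing says that libraries within a repeat came from separate cultures, so p-values measure the spread between these libraries, which may be technical.

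Gene positions and lengths are from GENCODE release 29, and promoter sequences from RefSeq on GRCh38.p14. All 5 TLE genes were named in each comparison. Of each partner list, genes called in any comparison were named, otherwise up to 4 in list order. For likeness, the 3 highest correlations were named, except 1 gene that is not reported here. TCF7L2, TBL1XR1 and TLE5 fall outside this rule and were added with their values seen. The members and lists were chosen with earlier results of these data known.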

Additional observations from a re-analysis of the deposited data

Results flagged for a closer look

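The WNT3A effect on TLE3 differed between times. The log2 difference from mTeSR1 was 2.41 at 6 h and 0.61 at 18 h, and the direct test of 18 h against 6 h gave -1.80 (edgeR FDR 0.027), lower in both repeats.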

How the results depend on the processing

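TLE3 at 6 h of WNT3A passed in all 17 alternatives run, at log2 2.27 to 2.54. The number of TLE genes called against mTeSR1 at 6 h of WNT3A was 1, and 2 (TLE1 and TLE3) with DESeq2, with no low-count filter, with the replicate block, and with the length offset plus block. At 18 h of WNT3A it was 1, 2 with DESeq2 or no filter (TLE2 and TLE6), 2 with the length offset (TLE2 and TLE3) and 3 with that offset plus block, and 0 to 1 when 1 library was left out. At 6 h of CHIR99021, and for CHIR99021 against WNT3A at 6 h, it was 0, and 1 (TLE3) with DESeq2, no filter, or the length offset plus block. After 18 h of CHIR99021 it was 1, 2 with the length offset (TLE2 and TLE3), and 0 to 1 with 1 library left out. From 6 h to 18 h of WNT3A it was 1, 3 with DESeq2, the replicate block, or the length offset plus block, 2 with no filter, and 0 to 2 with 1 library left out. From 6 h to 18 h of CHIR99021 it was 0, 1 (TLE2) with DESeq2 or no filter, and 0 to 1 with 1 library left out. The interaction had 0, and 1 (TLE3) with DESeq2. The replicate block changed no other TLE call.

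Over all genes, DESeq2, no filter, and the replicate block called 241, 173 and 168 genes at 6 h of WNT3A (66 in edgeR), and 768, 576 and 751 at 18 h (320). At 6 h of CHIR99021 they called 61, 32 and 21 (3), and from 6 h to 18 h of WNT3A 386, 275 and 279 (22). At 18 h of CHIR99021 DESeq2 called 899, and 181 were called without the block (424). CHIR99021 against WNT3A at 6 h had 29, 9 and 3 (1), and from 6 h to 18 h of CHIR99021 DESeq2 called 130 and no filter 21 (1). The length offset called 102, 404, 8 and 801 against mTeSR1 at 6 h and 18 h of WNT3A and of CHIR99021, in that order, and with the block 275, 1142 and 46 in the 3 of these it was run for. From 6 h to 18 h of WNT3A these were 69 and 587.

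Some signs turned. TLE2 between the agents at 18 h was 0.067 with no replicate block. With 1 library left out, the range was -1.02 to 0.53 for TLE6 at 6 h of WNT3A, -0.043 to 0.18 for TLE1 and -0.33 to 0.53 for TLE4 at 18 h of WNT3A, and -0.16 to 0.23 for TLE4 and -0.20 to 1.35 for TLE6 at 6 h of CHIR99021. Between the agents it was -0.15 to 0.38 for TLE2 at 6 h, -0.37 to 0.24 for TLE2 and -0.30 to 0.15 for TLE3 at 18 h, and in the interaction -0.48 to 0.13 for TLE2 and -0.26 to 1.75 for TLE6. Per median transcript length, TLE3 over TLE1 was 0.128, 0.413, 0.185, 0.199 and 0.155 in mTeSR1, WNT3A 6 h and 18 h, and CHIR99021 6 h and 18 h. The causes were not tested. TLE6 is limited by its counts.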
